A study of Mus musculus with 8 samples.

Results

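The 10 genes described here lie on chromosome 11 within 20 Mb of Alox15, the lipoxygenase gene targeted in the mice, and differed in their level of mRNA between Tregs from WT mice and Tregs labelled as coming from Alox15-/- mice. They are Gm12216, Lyrm7, Atox1, Zswim7, Trim16, Fxr2, Pfn1, Xaf1, Spns3 and AA465934, taken by gene symbol out of 28239 symbols listed and 12700 genes tested. They were chosen by their difference between the groups in this very comparison, though by what criterion they were taken ahead of 12 other genes of the same stretch that also passed is not given in the sources used here. Their fold changes are therefore given as a description and not as a test. A gene was tested when it reached at least 2 counts per 1000000 counted reads (CPM) in at least 4 libraries, and it passed when its p-value in edgeR's quasi-likelihood test, adjusted over all genes tested by the Benjamini–Hochberg procedure, was under 0.05. In all, 158 of the 12700 tested genes passed (1.24%), of which 133 had their higher level under the label Alox15-/- (1.05%) and 25 had it in WT (0.197%). All 10 members passed the expression filter, and their adjusted p-values in edgeR's test ran from 1.93e-05 for AA465934 to 0.0441 for Zswim7. The next genes of the same stretch by p-value were Mmd and Mpo, both with an adjusted p of 0.0620 in that test.

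The study asked how loss of Alox15 alters the transcriptional profile of Tregs. Naïve CD4+ T cells were taken by negative magnetic selection from spleens of 4 WT and 4 Alox15-/- mice, both given as C57BL/6 in strain background, and were cultured with IL-2, TGF-β and beads that activate through CD3 and CD28. On day 2 their RNA was profiled by MACE-seq, which counts sequence tags near the 3′ ends of transcripts. The 8 libraries, 4 in each group, held between 3723151 and 9538962 counts on genes. According to the methods, the WT mice came from Charles River and the Alox15-/- mice from The Jackson Laboratory, so that genotype and supplier cannot be told apart in these data. The methods give a narrow range of young adult ages and both sexes for the mice of all the reported experiments, without the sex of each of these 8 animals. The strain in which the Alox15-/- allele was first made, and the part of the gene it lacks, are not given in the sources used here. All levels below are CPM after TMM scaling of the library sizes, and all fold changes are on the log2 scale, as the libraries labelled Alox15-/- minus those labelled WT.

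Genes that lie close together on a chromosome are inherited together, so that alleles at sites near a targeted gene tend to stay with it through breeding. Neighbouring genes can also share regulatory DNA, and start sites that lie back to back can share a promoter. The 10 genes have no common function. Xaf1 is tied to interferon signaling and cell death, Trim16 to the handling of damaged membranes, Atox1 carries copper, Lyrm7 serves the respiratory chain, Zswim7 serves DNA repair, Fxr2 binds RNA, Pfn1 binds actin, and Spns3 is a predicted membrane transporter. Gm12216 and AA465934 are named here without a role.

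Alox15 itself (ENSMUSG00000018924.6; GRCm38 chromosome 11, 70344152 to 70352031, minus strand) was higher in the libraries labelled Alox15-/-. It stood at 70.2, 68.8, 63.4 and 65.0 CPM in these libraries and at 1.87, 2.55, 7.73 and 8.98 CPM in the WT libraries, from 255 to 454 reads against 12 to 77. The fold change was 3.65 ± 0.30 (SE, n = 4 per group), in the direction opposite to that of a gene removed. Tags near the 3′ end may lie outside the part of the gene that the allele lacks, in which case they do not check the genotype. Every direction below is therefore that of the label of a library.

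Xaf1 showed the clearest separation among the members with a known role. It encodes a binding partner of XIAP, the inhibitor of caspases, and its transcription is induced by interferon. The gene (ENSMUSG00000040483.15) lies on the plus strand from 72301629 to 72313733, and its start is 1.95 Mb from that of Alox15. Xaf1 was at 9.85, 11.9, 12.6 and 9.59 CPM in the 4 libraries labelled Alox15-/- and at 2.65, 2.07, 2.81 and 1.46 CPM in the 4 WT libraries. The lowest library labelled Alox15-/- was 3.41 times the highest WT library, and the log2 fold change was 2.23 ± 0.24 (SE, n = 4 per group).

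Trim16 (ENSMUSG00000047821.16; 62820231 to 62850808, plus strand) encodes a tripartite motif protein that works with galectins in the autophagy of damaged membranes. Its levels were 6.25, 4.59, 3.57 and 5.15 CPM in the libraries labelled Alox15-/- and 0.62, 0.64, 1.20 and 2.71 CPM in WT. The groups did not overlap, but the WT libraries were spread over a CV of 76.0% and rested on 4 to 13 reads each. The log2 fold change was 1.98 ± 0.39 (SE, n = 4 per group). The annotated span of Trim16 runs into that of Fbxw10 on the same strand, which held 1 to 10 reads per library and was not tested.

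Pfn1 was by far the most abundant member. It encodes profilin, which binds actin monomers and feeds them to growing filaments, and it lies closest to Alox15 of all members, with 0.303 Mb between the starts (ENSMUSG00000018293.4; 70651850 to 70654644, minus strand). Pfn1 was at 955, 882, 906 and 814 CPM in the libraries labelled Alox15-/- and at 532, 687, 474 and 569 CPM in WT. Thus every library labelled Alox15-/- was above every WT library, from at least 2724 reads in each, and the log2 fold change of 0.65 ± 0.11 (SE, n = 4 per group) was small beside that of Xaf1.

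Atox1 (ENSMUSG00000018585.9; 55446641 to 55461239, minus strand) encodes the copper chaperone that hands copper to the pumps of the secretory pathway. It was at 117, 132, 136 and 138 CPM in the libraries labelled Alox15-/- and at 79.5, 73.6, 68.8 and 85.8 CPM in WT. Both groups were tight, with CVs of 7.12% and 9.56%, and did not overlap. The log2 fold change was 0.77 ± 0.10 (SE, n = 4 per group).

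Zswim7 encodes a subunit of the Shu complex, which works in the repair of DNA by homologous recombination. Its start lies 8.07 Mb from that of Alox15 (ENSMUSG00000014243.5; 62267224 to 62281375, minus strand). It was at 18.7, 16.5, 21.3 and 21.3 CPM in the libraries labelled Alox15-/- and at 12, 11.8, 8.63 and 14.2 CPM in WT. The lowest value of the higher group was only 1.16 times the highest value of the other. The log2 fold change was 0.77 ± 0.18 (SE, n = 4 per group).

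Lyrm7 and Fxr2 were the members at a lower level in the libraries labelled Alox15-/-. Lyrm7 (ENSMUSG00000020268.14; 54826866 to 54860916, minus strand) encodes a mitochondrial LYR motif protein that holds the Rieske subunit Uqcrfs1 before it enters respiratory complex III. It was at 2.16, 2.97, 1.88 and 1.72 CPM in these libraries, from 9 to 12 reads each, and at 7.95, 5.26, 5.42 and 7.52 CPM in WT, from 33 to 54 reads each. The groups did not overlap, and the log2 fold change was -1.60 ± 0.28 (SE, n = 4 per group).

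Fxr2 (ENSMUSG00000018765.5; 69632990 to 69653297, plus strand) encodes an RNA-binding protein of the family of FMRP, the protein lost in fragile X syndrome. It was at 40.6, 33.7, 34.8 and 39.1 CPM in the libraries labelled Alox15-/- and at 52.7, 46.4, 56.8 and 59.1 CPM in WT. The gap between the groups was narrow, with the lowest WT library at 1.14 times the highest of the others. At -0.53 ± 0.12 (SE, n = 4 per group) it had the smallest log2 fold change of the 10 genes.

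Spns3 (ENSMUSG00000020798.14; 72494919 to 72550506, minus strand) encodes a protein of the spinster family, whose best known member exports sphingosine-1-phosphate. It was at 2.88, 6.75, 5.08 and 2.29 CPM in the libraries labelled Alox15-/- and at 0.16, 0.48, 0.80 and 0.63 CPM in WT. No WT library reached 2 CPM, so Spns3 passed the expression filter only through the group in which it was high, and WT values rested on 1 to 8 reads. Its log2 fold change of 2.89 ± 0.47 (SE, n = 4 per group) was the largest of the members and its CV of 48.3% the widest in the libraries labelled Alox15-/-. The gene starts 0.249 Mb from the start of Xaf1.

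AA465934 (ENSMUSG00000093483.1; 83291699 to 83294632, plus strand) is annotated as a processed transcript with no coding sequence. It was at 44.7, 49.9, 62.1 and 62.7 CPM in the libraries labelled Alox15-/- and at 10.4, 10.04, 17.9 and 11.3 CPM in WT. The lowest library of the higher group was 2.50 times the highest WT library, and the log2 fold change was 2.12 ± 0.19 (SE, n = 4 per group). The small nucleolar RNA Snord7 lies inside its span on the same strand and held 1 to 9 reads per library.

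Gm12216 (ENSMUSG00000081769.9; 53783418 to 53859256, minus strand) is a predicted gene annotated as coding, and is the member farthest from Alox15, at 16.5 Mb. It was at 8.41, 8.37, 6.77 and 7.44 CPM in the libraries labelled Alox15-/- and at 5.15, 2.71, 2.51 and 2.30 CPM in WT. WT replicate 1 stood apart from the other WT libraries and came nearest to the other group without reaching it. The log2 fold change was 1.28 ± 0.27 (SE, n = 4 per group).

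**Figure D1:**
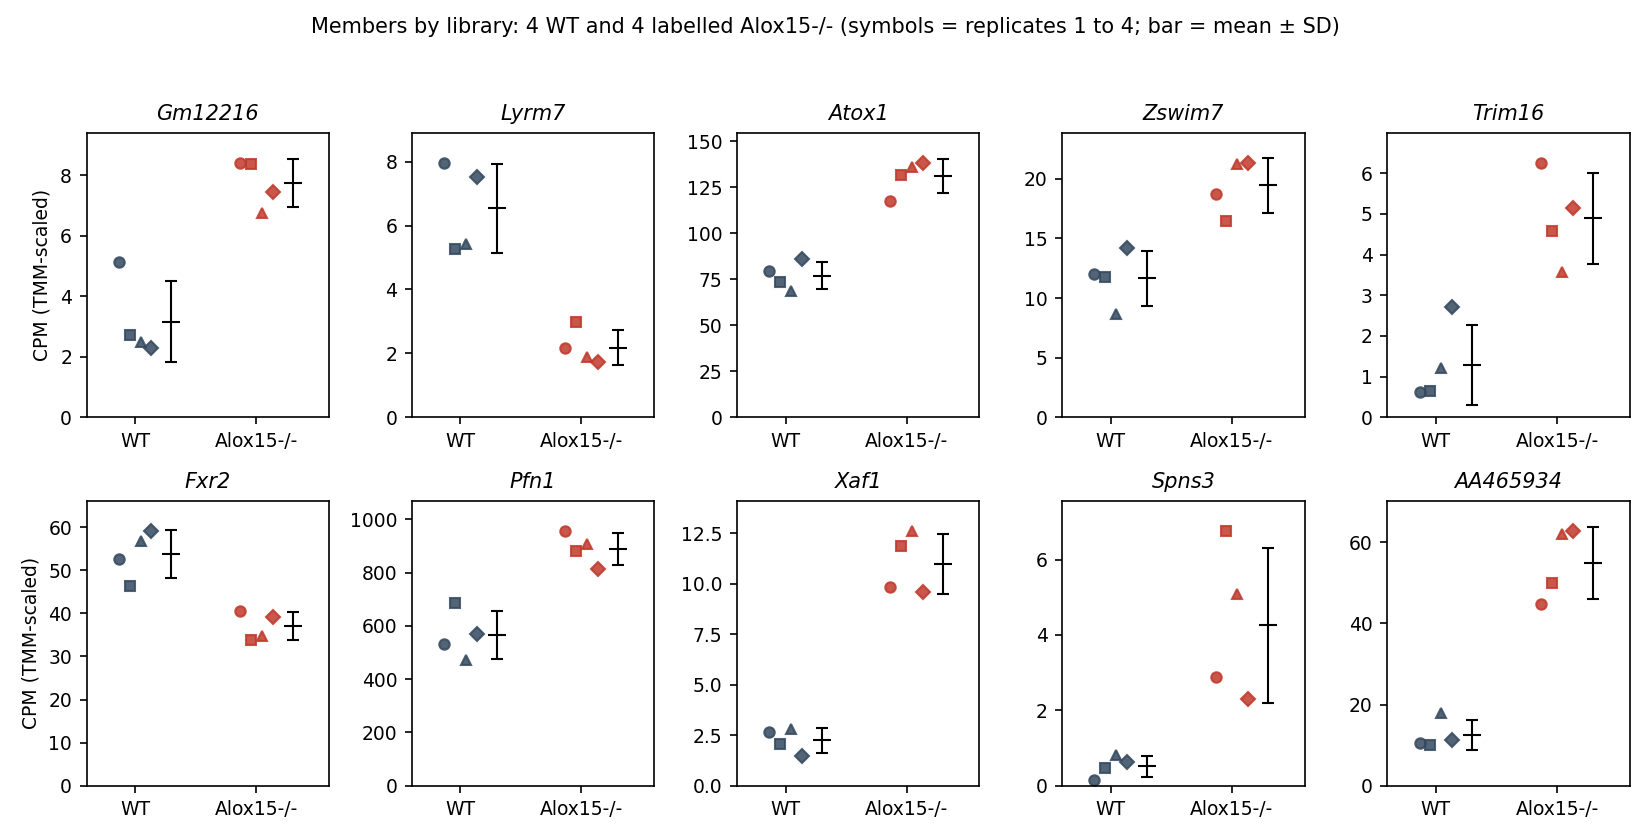
TMM-scaled CPM (vertical axis, from 0) of the 10 members in the 4 WT libraries (dark) and the 4 libraries labelled Alox15-/- (red), with the mean and SD beside each group. The groups do not overlap in any panel, and Lyrm7 and Fxr2 are the panels in which WT is higher.

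Of the members, 8 had their higher level in the libraries labelled Alox15-/- and 2 in WT, and the groups were apart for all 10. Of all tested genes, 667 had groups that did not overlap (5.25%), and since the members were chosen for their difference nothing is read from their own count. Only 6 of the 10 reached 2 CPM in all 8 libraries. When 1 library was left out and edgeR's test was run again, between 5 and 8 members stayed past the threshold. The number was 5 without Alox15-/- replicate 1 or 4 and 6 without Alox15-/- replicate 2 or 3 or WT replicate 3. Spns3 could not be tested without any of the Alox15-/- libraries, since it then missed the filter. Lyrm7, Atox1, Pfn1, Xaf1 and AA465934 passed in each of these 8 fits, Trim16 passed in 3, and Gm12216, Zswim7 and Fxr2 passed in 1 each.

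The promoters of 8 members were found in the RefSeq promoter table of GRCm38.p6, each as 250 bases before to 50 bases after the start, and the other members, Trim16 and Spns3, are named only. The sequences of Xaf1, AA465934 and Gm12216 are shown because they are the 3 of the 8 that hold AANNGAAA, the sequence recognised by interferon regulatory factors. Capitals mark AANNGAAA on either strand, and each sequence is written 5′ to 3′ on the strand of its gene.
Xaf1, chr11:72301379-72301678, plus strand: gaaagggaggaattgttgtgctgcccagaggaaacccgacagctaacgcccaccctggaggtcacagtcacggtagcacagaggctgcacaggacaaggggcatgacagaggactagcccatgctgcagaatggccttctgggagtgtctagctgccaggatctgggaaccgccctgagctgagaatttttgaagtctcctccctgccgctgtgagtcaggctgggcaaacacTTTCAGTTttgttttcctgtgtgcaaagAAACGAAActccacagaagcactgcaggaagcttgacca
AA465934, chr11:83291449-83291748, plus strand: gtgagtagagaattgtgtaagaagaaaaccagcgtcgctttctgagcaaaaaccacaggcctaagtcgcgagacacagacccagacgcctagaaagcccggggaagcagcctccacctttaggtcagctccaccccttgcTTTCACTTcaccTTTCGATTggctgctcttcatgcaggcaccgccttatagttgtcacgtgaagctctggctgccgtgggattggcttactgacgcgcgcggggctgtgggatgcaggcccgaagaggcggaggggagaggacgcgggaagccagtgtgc
Gm12216, chr11:53859207-53859506, minus strand: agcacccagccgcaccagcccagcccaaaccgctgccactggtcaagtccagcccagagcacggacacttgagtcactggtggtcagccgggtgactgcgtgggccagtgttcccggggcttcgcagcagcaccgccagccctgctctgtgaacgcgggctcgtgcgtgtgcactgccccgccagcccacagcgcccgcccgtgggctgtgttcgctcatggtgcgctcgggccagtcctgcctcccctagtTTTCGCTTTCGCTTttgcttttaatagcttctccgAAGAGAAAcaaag
Xaf1 holds one match on each strand, from base -17 to -10 before its start on the opposite strand and from base 12 to 19 after it on its own strand. AA465934 holds its matches from -110 to -103 and from -98 to -91, both on the opposite strand. In Gm12216 the matches from 3 to 10 and from 9 to 16 share bases, and with them lies the core of the interferon-stimulated response element (GAAA, any 2 bases, GAAA), from 3 to 12 on the opposite strand. AANNGAAA is in 23.9% of the 32851 promoters of the table and the longer core in 3.44%, and every such core contains an AANNGAAA.

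Other motifs were searched on both strands of the same windows. GGGCGG, the GC box, was in 6 of the 8 promoters, those of Atox1, Fxr2, Gm12216, Pfn1, Xaf1 and Zswim7, and in 35.7% of all promoters. CCAAT was in those of Lyrm7 and AA465934 (37.4% of all promoters), TATAAA in that of Lyrm7 (13.6%) and TTCNNNGAA, the gamma-activated sequence, in that of Gm12216 (8.30%). The last of these overlaps an AANNGAAA by 2 bases. A match describes the letters of the window and shows no binding.

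The promoter of Zswim7 is shown because a second gene starts inside it. Ttc19, which encodes another factor needed for respiratory complex III, starts 78 bases from Zswim7 in RefSeq and runs on the opposite strand, and capitals mark the 79 bases from one start to the other, both included.
Zswim7, chr11:62281346-62281645, minus strand: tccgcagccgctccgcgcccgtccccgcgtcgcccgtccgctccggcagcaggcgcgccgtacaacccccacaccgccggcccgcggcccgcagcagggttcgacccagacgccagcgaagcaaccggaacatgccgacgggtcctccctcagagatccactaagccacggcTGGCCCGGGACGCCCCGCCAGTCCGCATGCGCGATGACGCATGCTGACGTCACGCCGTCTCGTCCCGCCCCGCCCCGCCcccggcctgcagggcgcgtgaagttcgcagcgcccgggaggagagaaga
The stretch in capitals holds the sequence GGGCGG of the GC box on the strand opposite to Zswim7, at -14 to -9, -9 to -4 and -4 to 2 relative to its start, the last reaching 1 base past the capitals. Although the starts lie back to back, Ttc19 was at 19.7 ± 1.5 CPM in the libraries labelled Alox15-/- and 22.05 ± 2.42 CPM in WT (SD, n = 4). Its groups overlapped, and its log2 fold change was -0.16 ± 0.14 (SE; adjusted p = 0.838 in edgeR's test) beside 0.77 ± 0.18 for Zswim7. The difference between the 2 genes was not tested.

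To learn whether genes next to a member moved with it, the nearest tested gene on each side of each member was examined in the same fit, with members and Alox15 left out. None of these 19 genes passed, against 1.24% of all tested genes, and none passed by edgeR's exact test, DESeq2 or limma-voom. At an unadjusted p under 0.05 in edgeR's quasi-likelihood test there were 4 of the 19 (Irf1, Adora2b, Tvp23b and Med31, all with positive log2 fold changes), beside 996 of all 12700 tested genes (7.84%). Their median absolute log2 fold change was 0.134, beside 0.125 for all tested genes, and 10 had a positive and 9 a negative log2 fold change. Among the 55 genes that are the 3 nearest on each side, again none passed in edgeR's quasi-likelihood test and 6 had an unadjusted p under 0.05.

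The gene with the largest difference next to a member was Adora2b, an adenosine receptor whose start is 32.4 kb from that of Zswim7. It was at 3.76 ± 2.01 CPM in the libraries labelled Alox15-/- and 1.80 ± 0.78 CPM in WT (SD, n = 4), with groups that overlapped and a log2 fold change of 1.06 ± 0.45 (SE; adjusted p = 0.573 in edgeR's test). Tvp23b, 59.2 kb from Trim16, was the single neighbour whose groups were apart, at 25.2 ± 2.86 CPM against 17.6 ± 2.15 CPM (SD, n = 4), with an adjusted p of 0.159 in edgeR's test.

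Lyrm7, at -1.60, lies beside Hint1, whose start is 5.47 kb away and whose log2 fold change was 0.08 ± 0.12 (SE, n = 4 per group). Pfn1 has Eno3, a muscle enolase gene, at 2.56 kb with 0.13 ± 0.12 (SE) and Slc25a11, a mitochondrial carrier gene, at 7.16 kb with -0.13 ± 0.10 (SE). The start of G3bp1, a stress granule gene, is 8.45 kb from that of Atox1, and its value was -0.13 ± 0.11 (SE). Xaf1 and Spns3 are separated by Mybbp1a, at -0.21 ± 0.12 (SE). Med31, a subunit of the mediator complex on the other side of Xaf1, was at 0.50 ± 0.19 (SE; adjusted p = 0.458 in edgeR's test). Next to Gm12216 lies Irf1, an interferon regulatory factor, at 0.35 ± 0.16 (SE; adjusted p = 0.636 in edgeR's test). For AA465934 the neighbour Ap2b1, 7.33 kb away, was at -0.25 ± 0.12 (SE). Differences between a member and its neighbours were not tested.

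**Figure D2:**
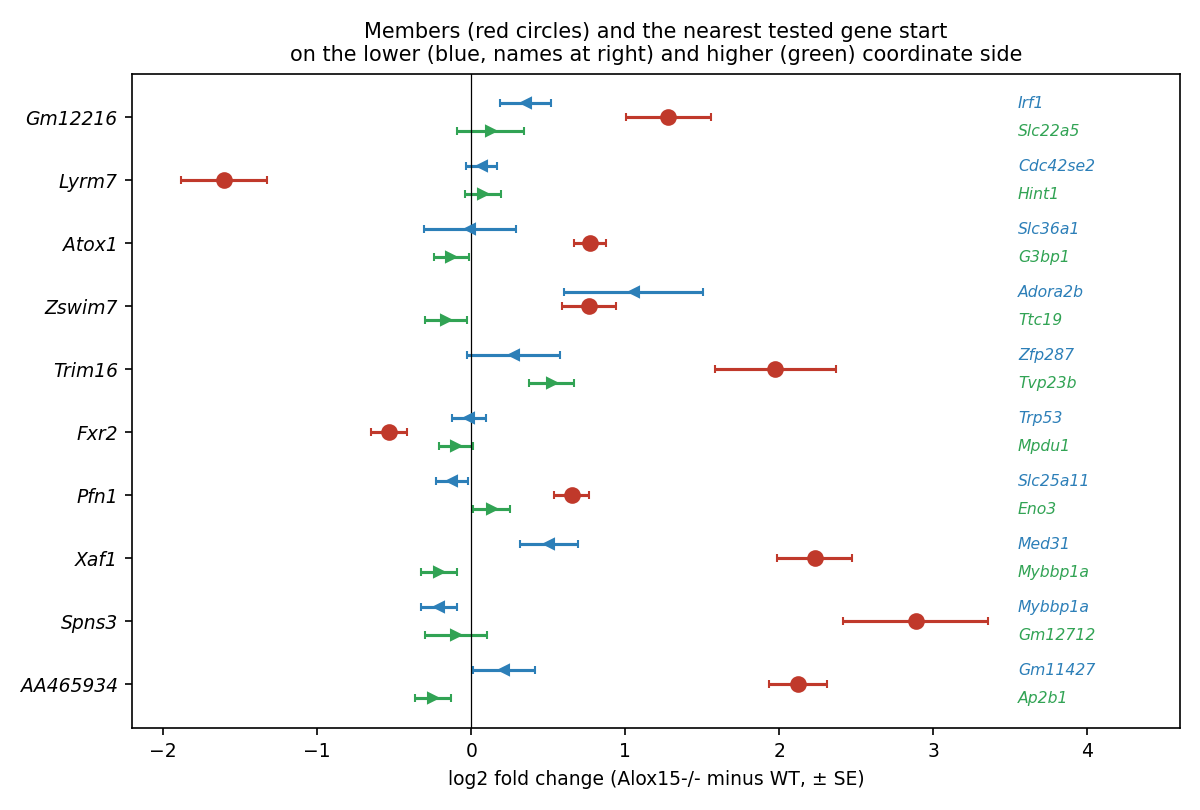
Log2 fold change (horizontal axis, libraries labelled Alox15-/- minus WT, with SE) of each member (red circle) and of the nearest tested gene on its lower-coordinate (blue) and higher-coordinate (green) side, named at the right. The neighbours lie between -0.25 (Ap2b1) and 1.06 (Adora2b), and only Adora2b reaches the value of the member beside it.

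Along the chromosome, 6 members lie on the lower-coordinate side of Alox15 and 4 on the other, and their starts are between 0.303 and 16.5 Mb from its own. Within 20 Mb, 785 genes were listed and 419 were tested, and 22 of these passed (5.25%), Alox15 left out, of which 17 were higher and 5 lower. This number was 13 without Alox15-/- replicate 1. By distance of the starts, 6 of 109 genes passed within 5 Mb, 4 of 128 between 5 and 10 Mb and 12 of 182 between 10 and 20 Mb. Members made up 4, 2 and 4 of these. Between 20 and 40 Mb, 6 of 307 passed (1.95%). Beyond 40 Mb none of 278 passed in edgeR's quasi-likelihood test, with 18 at an unadjusted p under 0.05, 3 by edgeR's exact test, 2 by DESeq2 and none by limma-voom. On all other chromosomes 128 of 11311 passed (1.13%). Chromosome 11 as a whole, Alox15 included, had 29 of 1005 genes past the threshold (2.89%), after chromosome 14 with 14 of 414 (3.38%).

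The other 12 genes past the threshold within 20 Mb comprised 9 with a positive and 3 with a negative log2 fold change. The lower ones were Galnt10 (log2 fold change -0.86 ± 0.11, SE), Ubb (-0.63 ± 0.09, SE) and Tubd1 (-1.16 ± 0.25, SE). The higher ones were the interferon-inducible GTPase gene Irgm2 (1.06), the chemokine genes Cxcl16 (1.84), Ccl6 (2.60) and Ccl9 (2.87), the integrin gene Itgae (1.15), Tlcd2 (1.09), the Schlafen genes Slfn1 (0.70) and Slfn8 (1.03), and Epx (3.29), the eosinophil peroxidase gene. The values just outside the threshold were 33.5 ± 4.33 CPM against 22.7 ± 2.35 CPM for Mmd and 11.3 ± 12 CPM against 1.32 ± 1.09 CPM for Mpo (SD, n = 4), the groups of Mpo overlapping.

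**Figure D3:**
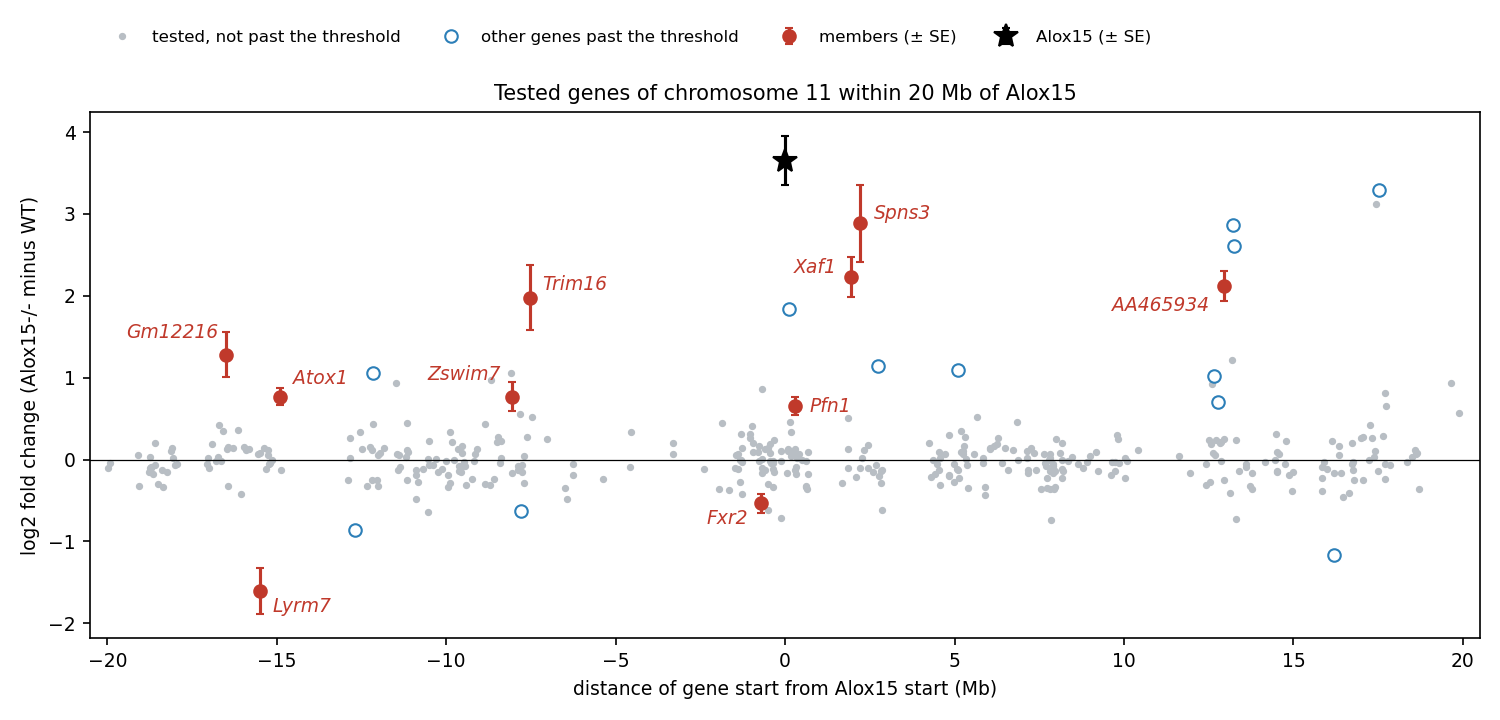
Log2 fold change (vertical axis, libraries labelled Alox15-/- minus WT) of the tested genes of chromosome 11 within 20 Mb against the distance of their start from that of Alox15 (horizontal axis, Mb, negative towards lower coordinates). Members (red, with SE) and the 12 other genes past the threshold (blue rings) stand on both sides of Alox15 (star, 3.65) among genes that did not pass (grey), most of which lie near 0 and of which Mpo is highest at 3.12.

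Genes that work with the products of the members, or share a response with them, were examined in lists. Of those past the threshold, 4 were in the interferon response list of Xaf1 and 1 in the copper handling list of Atox1. In 10 lists with 160 genes, 153 were tested and 5 passed (3.27%, beside 1.24% of all tested genes). The number that passed was 1 without Alox15-/- replicate 3, WT replicate 1 or WT replicate 2, and 2 without Alox15-/- replicate 2. In 8 of the lists none of 125 genes passed in edgeR's quasi-likelihood test, and 4 of these had an unadjusted p under 0.05. By DESeq2, 1 gene of the actin list passed, and none of the 8 lists had a gene that passed by edgeR's exact test or limma-voom.

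Xaf1 had the list with the most genes past the threshold. This list, like the others, was chosen with earlier results of these data known, so its numbers are a description and no independent test. Of 17 tested interferon response genes, 4 were higher in the libraries labelled Alox15-/- (Irf7, Isg15, Ifit3 and Usp18), and 15 of the 17 had a positive log2 fold change, with a median of 0.46 beside -0.01 over all tested genes. Isg15, a ubiquitin-like modifier, was at 7.34 ± 2.24 CPM against 2.46 ± 0.89 CPM (SD, n = 4; log2 fold change 1.59 ± 0.30, SE). Usp18, the protease that removes this modifier, was at 16.04 ± 7.74 CPM against 5.89 ± 0.71 CPM (SD, n = 4; 1.42 ± 0.28, SE). None of 14 inhibitors of apoptosis and caspases passed in edgeR's quasi-likelihood test, none had an unadjusted p under 0.05, and none passed by the other tools. Xiap, the partner after which Xaf1 is named, was at 56.3 ± 5.92 CPM against 54.7 ± 6.71 CPM (SD, n = 4).

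Among 11 tested genes of copper handling, the list of Atox1, Mt1 passed. It encodes a metallothionein, which binds copper and zinc, and was at 37.1 ± 12.9 CPM against 16.9 ± 5.5 CPM (SD, n = 4; log2 fold change 1.09 ± 0.25, SE). Mt1 also passed by edgeR's exact test and DESeq2 but not by limma-voom. The copper importer Slc31a1 was at 33.8 ± 2.85 CPM against 41.9 ± 3.08 CPM (SD, n = 4) with an adjusted p of 0.447 in edgeR's test, and the copper pump Atp7a, which receives copper from Atox1, was at 4.86 ± 1.07 CPM against 4.40 ± 1.21 CPM.

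None of the 33 actin assembly genes listed with Pfn1 passed in edgeR's quasi-likelihood test, 3 had an unadjusted p under 0.05, and their median log2 fold change was 0.02. Actb was at 0.01 ± 0.12 (SE) on the log2 scale of fold change and Cfl1, which severs actin filaments, at 0.00 ± 0.09 (SE). Tmsb10, a thymosin that binds actin monomers as profilin does, was at 1003 ± 66.0 CPM against 788 ± 63.8 CPM (SD, n = 4; adjusted p = 0.138 in edgeR's test).

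For Lyrm7, none of 15 genes of complex III and its assembly and none of 11 other LYR motif genes passed in edgeR's quasi-likelihood test, with 0 and 1 at an unadjusted p under 0.05 and none by the other tools. Uqcrfs1, the subunit that Lyrm7 holds, was at 218 ± 25.9 CPM against 231 ± 12.1 CPM (SD, n = 4). The lists of the remaining members held no gene past the threshold either. None of 15 homologous recombination genes for Zswim7 (median log2 fold change -0.16), 17 galectin and autophagy genes for Trim16 (0.05), 12 FMRP family genes and partners for Fxr2 (-0.03) and 8 spinster and sphingosine-1-phosphate genes for Spns3 (-0.01) passed in edgeR's quasi-likelihood test or by the other tools, and none had an unadjusted p under 0.05. Fmr1 was at 75.6 ± 13.2 CPM against 77.1 ± 12.3 CPM and Spns1 at 18.0 ± 3.41 CPM against 22.8 ± 3.31 CPM (SD, n = 4).

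Markers of other cells moved with the groups. Summed CPM of 5 of these lists were higher in every library labelled Alox15-/- than in any WT library. The ranges were 904 to 3474 against 33.8 to 122 for erythroid cells (5 of 5 tested genes past the threshold), 143 to 367 against 59.0 to 83.5 for mast cells and basophils (7 of 8), 21.3 to 73.7 against 1.25 to 10.4 for eosinophils (2 of 2), 63.7 to 399 against 17.9 to 25.9 for myeloid cells (6 of 7), and 77.6 to 140 against 26.9 to 44.1 for gamma-delta T cells (4 of 4). Each of these sums differed with an exact permutation p of 0.0286, the smallest that 4 against 4 can give (two-sided; adjusted p = 0.0476 over 10 lists). The marker lists were chosen with earlier results of these data known, so the p-values of the sums are a description and no independent test. B cell markers were lower, at 6.25 to 8.59 against 9.36 to 21.4, with the same p-values and 1 of 2 tested genes past the threshold. NK cell markers were at 39.6 to 82.3 against 27.1 to 44.3 (2 of 4 genes; exact permutation p adjusted to 0.0816) and CD8 T cell markers at 12.02 to 21.8 against 21.3 to 31.6 (0 of 2; 0.107). Markers of T cells were at 2228 to 2606 against 2458 to 2991 (0 of 9 genes; 0.229) and those of Tregs at 1655 to 1811 against 1745 to 1940 (0 of 5; 0.190). Without its highest gene the Treg sum was at 931 to 1004 against 957 to 1047. Both groups thus expressed genes of these lists, but a sum does not show the identity of the cells. Of the markers, Ear2 and Ear6 of the eosinophil list had no reads in any WT library, and every other marker with a row in the table had reads in WT. In bulk RNA fewer cells of a type and less RNA per cell cannot be told apart.

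The members and the marker sums were spread differently over the 4 libraries labelled Alox15-/-. The ratio of the highest to the lowest of these libraries was between 1.17 (Pfn1) and 2.95 (Spns3), with a median of 1.30 over the members. The same ratio was between 1.81 and 6.27 for the sums of myeloid cells, eosinophils, NK cells, gamma-delta T cells, mast cells with basophils and erythroid cells. It was 1.82 for CD8 T cell markers, 1.37 for B cell markers, 1.17 for T cell markers and 1.09 for Treg markers. Spns3, at 2.95, was spread more than the sums of mast cells with basophils (2.56), NK cells (2.08) and gamma-delta T cells (1.81). The part of other cells in the difference of any member was not tested.

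**Figure D4:**
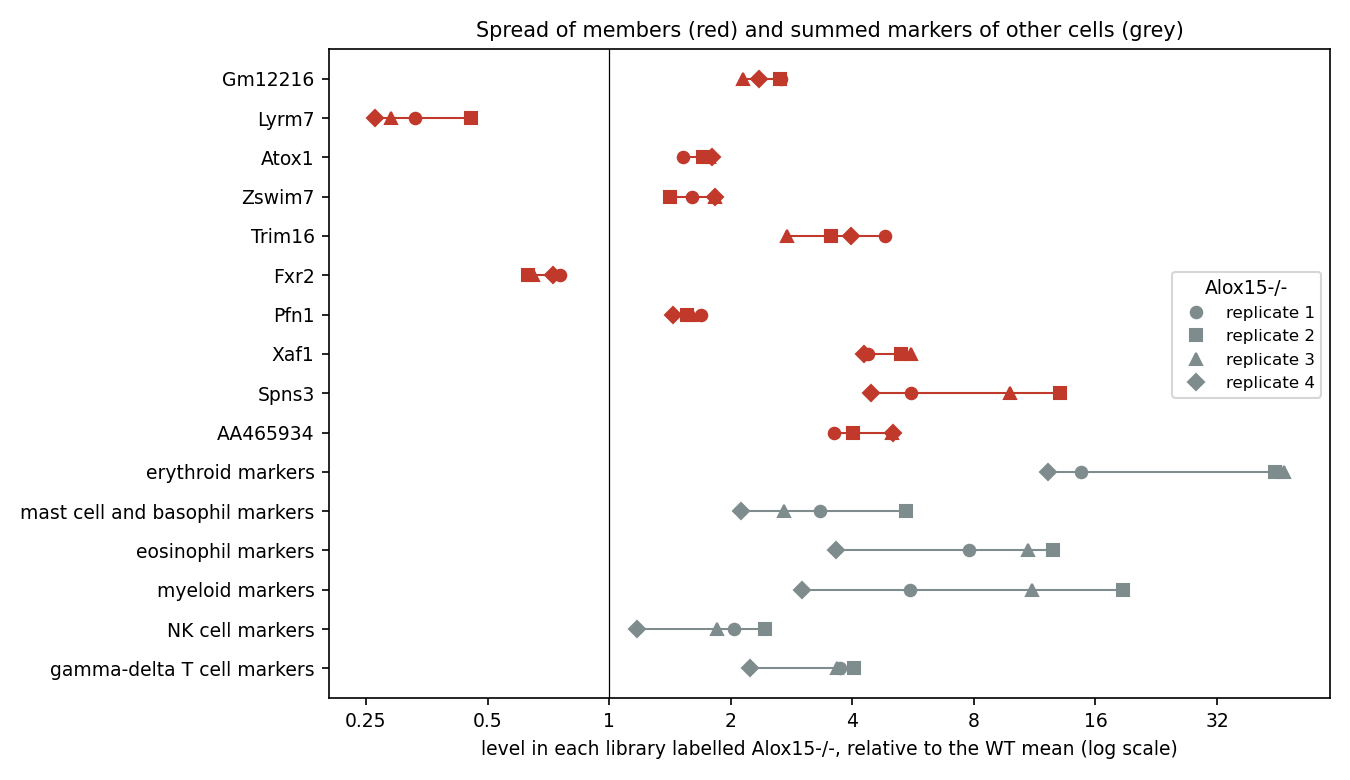
Level in each of the 4 libraries labelled Alox15-/- relative to the WT mean (horizontal axis, log scale) for the 10 members (red) and for summed markers of 6 other kinds of cells (grey), with a symbol for each replicate. Members span from 1.17-fold (Pfn1) to 2.95-fold (Spns3), and the sums from 1.81-fold (gamma-delta T cells) to 6.27-fold (myeloid cells). Spns3 spans more than the sums of mast cells with basophils, NK cells and gamma-delta T cells.

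Sequence shared with other genes was looked for, since reads of near-identical transcripts can be split between genes in counting. The last 500 bases of the annotated transcripts of 7 members matched no other gene at 90% identity or more over at least 100 bases. In Trim16, 1 of 5 transcripts shared 239 bases with Fbxw10 at 100% identity. Summed with Fbxw10, the log2 ratio of the group means was 1.73, beside 1.92 for Trim16 alone. Pfn1 matched the gene AC124336.1 at 94.6% over 223 bases, which the count table does not list under that symbol. In Xaf1, 1 of 5 transcripts ended in a stretch that matched 22 genes, 13 of which were tested, and none of these passed in edgeR's quasi-likelihood test. The levels of Trim16, Pfn1 and Xaf1 are uncertain to this extent. Whether the counting used the strand is not given in the sources used here, so that reads from a gene and from a transcript antisense to it cannot be told apart.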

How the data were processed

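For each of the 8 libraries the authors deposited unnormalized read counts by gene symbol. The kit is MACE-Seq in the methods and a small RNA kit in the labels, and the submitters' processing notes name Bowtie, edgeR and GRCm38 without versions. Genes at 2 CPM or more in 4 or more libraries were kept, scaled by TMM and compared by the two-sided quasi-likelihood test of edgeR 4.0.16 (R 4.3.3), not robust, with group as the only term; p-values were adjusted by Benjamini–Hochberg over 12700 genes with a threshold of 0.05. The methods state edgeR, this filter and this adjustment, but not which test. The biological coefficient of variation was 14.5%. The members and all gene lists were chosen with earlier results of these data known. Named genes are the members, Alox15, other genes past the threshold within 20 Mb and the next ones outside it, neighbours, overlapping genes and copies, and genes of each list; Actb, Cfl1, Xiap, Atp7a, Uqcrfs1 and Fmr1, and the neighbours other than Adora2b, were named for their role or place, after their values were seen.

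Positions came from GENCODE of GRCm38, in which 97.0% of tested symbols had 1 position. Start to start distances were used. Marker sums were compared as log2(CPM + 1) by an exact permutation test (scipy 1.17.1). Transcript ends were searched with blastn 2.17.0. Alternatives were other scalings, filters and tests, DESeq2 1.42.0, limma-voom (limma 3.58.1), the replicate number as a block, 3 neighbours, sums without the highest gene, stricter identity, and each library left out. Labels give 8 mice, so p-values measure the spread between animals and their cultures. Figures were drawn with matplotlib 3.10.9, from tables handled with pandas 2.3.3 in Python 3.11.15.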

Additional observations from a re-analysis of the deposited data

Results flagged for a closer look

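In 3 of 42 groups of 4 libraries, 1 library lay far from the other 3 by Dixon's criterion, which chance meets in about 1 in 20 groups. Gm12216 was at 5.15 CPM in WT replicate 1 and between 2.30 and 2.71 CPM in the other WT libraries. AA465934 was at 17.9 CPM in WT replicate 3 and between 10.04 and 11.3 CPM in the other WT libraries. The summed markers of CD8 T cells were at 21.3 CPM in WT replicate 2 and between 29.9 and 31.6 CPM in the other WT libraries.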

How the results depend on the processing

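None of the 201 refits of a member or of Alox15 reversed its direction, and 30 no longer passed the threshold; with all libraries kept these were Zswim7 and Fxr2 under the filter of 10 counts in every library and under the replicate block. Without a filter on low counts 388 genes and 11 partner genes passed (158 and 5 in the analysis above). With at least 10 counts in every library 100 genes, 13 genes within 20 Mb and 4 members passed, and only 6 members were tested. Partner genes numbered 8 by DESeq2 and 3 by limma-voom. Leaving out 1 library gave 86 to 173 genes past the threshold (95, 86 and 93 without Alox15-/- replicates 1, 2 and 3, and 105 without WT replicate 2), 5 to 8 members, 13 to 24 genes within 20 Mb, 1 to 6 partner genes and 0 neighbours. At 95% identity 1 gene matched a member's transcript ends, against 24 at 90%. The NK cell sum without its highest gene differed by 1.19 on the log2 scale (exact permutation p adjusted to 0.0408). The replicate numbers do not pair the samples by any label, and of 4 same-numbered pairs 1 had deviations correlated above 0.1 (range -0.20 to 0.18), and 1 of 4 libraries labelled Alox15-/- correlated best with the WT library of its number; with the number as a block 146 genes, 8 members, 17 genes within 20 Mb and 4 partner genes passed. The cause of these shifts was not tested, apart from the fewer genes or libraries entering a fit. Depth limits Lyrm7, Trim16 and Spns3 most, at 13 reads or fewer per library in 1 group.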
